A study of Drosophila melanogaster with 2 samples.

Results

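The regions described here were the CLAMP peaks inside introns of the Drosophila melanogaster X chromosome. A peak of the authors' optimal set was included when its summit lay on X, over 500 bp from every annotated transcription start site (TSS) of a protein-coding or noncoding RNA gene, in no annotated exon, and inside a gene body. This rule gave 325 X intron peaks, out of 790 optimal peaks on X and 3077 in the whole set. Within the optimal set the rule used position only and no base sequence. The set itself had been thresholded by the authors, so every peak had to be strong enough to enter it. Among intronic X peaks left out as promoter peaks, the one farthest from a TSS lay in pigs, at 495 bp, with a signal of 1041.

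The peaks came from ChIP-seq on whole embryos of both sexes, pooled, aged 0 to 24 h. All embryos were of 1 transgenic line that makes CLAMP, the product of Clamp (CG1832), with GFP fused to its C-terminus, and sonicated chromatin of 200 to 800 bp was recovered with an antibody against GFP. There were 2 biological replicates, numbered 4 and 2 in the labels, in a single group. No other condition, no untagged line and no separate sexes were analysed here, so the peaks average over male and female embryos, over all tissues and over all embryonic stages. Peak lists carry no read totals, so the depth of the libraries was unknown.

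CLAMP is a zinc-finger protein that binds GA repeats, stretches in which G and A alternate. It is known for drawing the MSL dosage compensation complex to the X chromosome of males, which raises the transcription of X-linked genes in that sex, and it also binds many sites on the autosomes in both sexes. GA repeats are bound as well by GAF, another zinc-finger protein. Introns of flies can hold enhancers as well as tracts of simple repeats.

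The sequences under the summits ranged from clean GA repeats to windows with no GA repeat at all. The 10 X intron peaks of highest signal are shown first, because they are the sites at which binding was strongest by the authors' measure. Each line gives 121 bp centred on the summit, on the plus strand of dm6 with the Release 6 sequence of RefSeq, 5′ to 3′. Capitals mark uninterrupted alternations of G and A, or of T and C, of 8 bp or more, called GA runs below. The gene named is the host of the intron.
lncRNA:CR32773, chrX:4411564-4411684: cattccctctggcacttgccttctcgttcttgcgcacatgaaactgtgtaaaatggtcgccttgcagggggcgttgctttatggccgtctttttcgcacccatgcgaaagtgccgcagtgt
Pp2C1, chrX:4684488-4684608: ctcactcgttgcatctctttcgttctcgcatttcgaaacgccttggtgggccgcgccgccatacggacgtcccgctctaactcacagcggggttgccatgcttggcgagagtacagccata
Smr, chrX:12735208-12735328: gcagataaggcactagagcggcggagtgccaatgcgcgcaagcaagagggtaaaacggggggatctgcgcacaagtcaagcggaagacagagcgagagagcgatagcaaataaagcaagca
acj6, chrX:15356474-15356594: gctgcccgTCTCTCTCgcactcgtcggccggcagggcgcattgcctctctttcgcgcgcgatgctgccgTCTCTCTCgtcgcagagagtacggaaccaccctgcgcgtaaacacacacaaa
CG32532, chrX:19546742-19546862: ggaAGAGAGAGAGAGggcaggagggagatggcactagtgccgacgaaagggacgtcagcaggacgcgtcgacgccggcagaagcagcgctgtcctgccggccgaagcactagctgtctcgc
nocte, chrX:10472699-10472819: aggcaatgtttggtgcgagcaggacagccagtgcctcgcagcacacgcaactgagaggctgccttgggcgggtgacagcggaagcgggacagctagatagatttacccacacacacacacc
Tlk, chrX:3780961-3781081: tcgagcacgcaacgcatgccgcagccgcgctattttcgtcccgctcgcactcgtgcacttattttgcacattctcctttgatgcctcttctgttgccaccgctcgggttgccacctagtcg
bi, chrX:4425137-4425257: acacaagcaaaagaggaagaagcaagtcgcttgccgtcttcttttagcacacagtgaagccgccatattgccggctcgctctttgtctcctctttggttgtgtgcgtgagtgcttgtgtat
Tlk, chrX:3742263-3742383: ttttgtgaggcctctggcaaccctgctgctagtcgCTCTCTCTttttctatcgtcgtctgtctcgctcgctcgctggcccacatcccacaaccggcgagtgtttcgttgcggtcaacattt
Nup153, chrX:16608008-16608128: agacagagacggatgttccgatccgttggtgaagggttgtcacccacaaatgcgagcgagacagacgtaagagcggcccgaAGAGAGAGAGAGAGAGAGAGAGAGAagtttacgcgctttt

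The 5 X intron peaks with the longest GA runs are shown next, because they hold the sequence for which CLAMP is best known in its purest form. The capitals again mark GA runs.
Ten-a, chrX:12090504-12090624: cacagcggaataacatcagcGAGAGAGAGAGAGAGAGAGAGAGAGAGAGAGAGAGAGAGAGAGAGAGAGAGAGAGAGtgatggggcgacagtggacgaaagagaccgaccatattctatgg
CG9095, chrX:15143535-15143655: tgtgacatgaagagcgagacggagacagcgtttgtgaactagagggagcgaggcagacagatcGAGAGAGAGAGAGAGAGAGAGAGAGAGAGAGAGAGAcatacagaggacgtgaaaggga
Cph, chrX:7225027-7225147: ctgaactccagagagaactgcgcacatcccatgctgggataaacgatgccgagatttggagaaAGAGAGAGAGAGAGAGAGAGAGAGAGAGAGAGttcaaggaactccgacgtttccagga
CG15465, chrX:5160215-5160335: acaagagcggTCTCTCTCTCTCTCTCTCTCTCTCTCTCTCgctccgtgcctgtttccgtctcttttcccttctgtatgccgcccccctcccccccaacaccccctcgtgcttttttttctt
Ca-alpha1T, chrX:6189663-6189783: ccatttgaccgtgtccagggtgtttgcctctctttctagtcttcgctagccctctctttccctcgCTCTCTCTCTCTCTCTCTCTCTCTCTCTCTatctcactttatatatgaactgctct

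These 2 sets of peaks did not overlap, though both are small parts of the 325. Of the 10 strongest peaks, 6 had no GA run of 8 bp within 100 bp of the summit. Over all X intron peaks 177 had none, 54.5%, so the strongest peaks were near the share of the set. The run of 57 bp in Ten-a, a teneurin cell-surface protein of synaptic matching, had a signal of 658. The run of 36 bp in CG9095 had 449. The run of 32 bp in Cph, which encodes a zinc-finger transcription factor, had 167, and the run of 30 bp shared by the overlapping genes CG15465 and rg had 165. The run of 30 bp in Ca-alpha1T, a voltage-gated calcium channel, had 142. Signal is the enrichment value that the authors' peak caller gave, used here only to rank peaks of 1 list.

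GA runs were concentrated at the summits of the X intron peaks. At least 1 such run was found within 100 bp of the summit in 148 of 325 peaks, 45.5% (exact 95% interval 40.0 to 51.1%). The windows of the same size placed 1000 bp to each side of the same summits held a run in 31 of 650 cases, 4.77%, a 9.55-fold difference. A run stood at the summit alone in 130 peaks and in a flank alone in 13 (exact binomial test, two-sided, Benjamini-Hochberg over the family of 9 comparisons, adjusted p = 1.71e-24). Over all 47556 non-overlapping tiles of the same length in X introns, 2.47% held a run, and over all 3071 optimal peaks of X and the autosomes 34.4% did. The median GC content was 50.7% at the summits, 42.3% in the flanks and 40.3% in the tiles, and the part of base composition in the share of runs was not tested. Intervals and tests cover counting error between sites of these libraries only, since peaks are not replicates.

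The runs lay close to the summit. The centre of the longest run was within 50 bp of the summit in 126 of the 148 peaks with one, 85.1%, and the median distance was 20 bp. More than 1 run lay in the window of 54 peaks, with at most 5 in a single window. Runs of 12 bp or more were found at 25.8% of the 325 summits and at 1.38% of flanks.

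**Figure D1:**
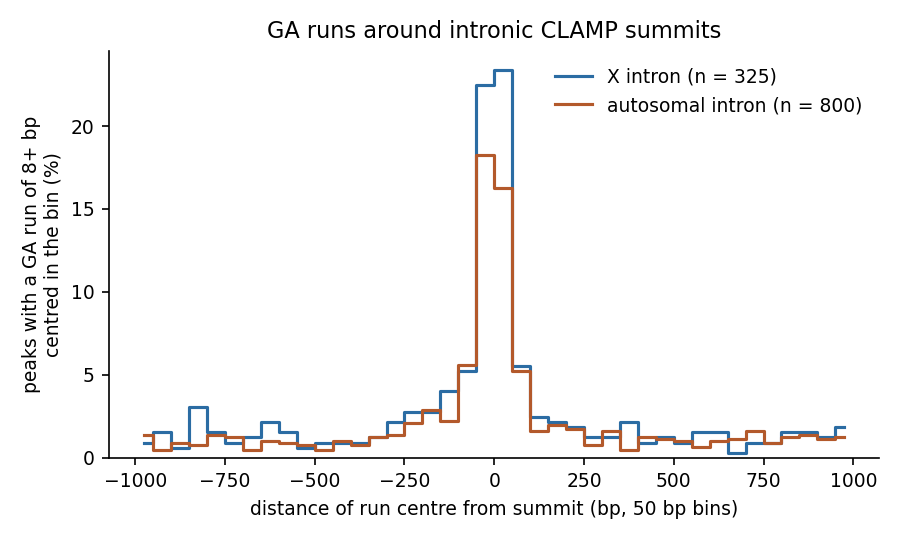
Share of peaks with a GA run of 8 bp or more centred in each 50 bp bin, by distance from the summit in bp, for the 325 X intron peaks and the 800 autosomal intron peaks. In the 2 bins next to the summit the X intron share was 22.5 and 23.4%, against 18.3 and 16.3% for autosomal introns.

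Many summits without a clean run held a broken one. An imperfect GA tract, 12 bp that match the alternation with at most 2 mismatches, lay at 248 of 325 summits, 76.3%, against 9.38% of flanks and 4.89% of X intron tiles. The short word GAGAG, known as the core of GAF sites and contained in any GA run of 8 bp, was found on either strand at 87.4% of summits, 26.3% of flanks and 21.9% of tiles. CAGGTAG, the site known for the early activator Zelda, was found on either strand at 0.923% of summits (3 of 325, exact 95% interval 0.191 to 2.67%), 1.69% of flanks and 0.822% of tiles. CA runs of 8 bp or more were present at 18.2% of summits, 10.5% of flanks and 8.26% of tiles. Runs of A of 8 bp or more went the other way, at 10.5% of summits, 22.3% of flanks and 20.3% of tiles. Other peak groups held these sequences as well. Imperfect tracts lay at 68.5% of autosomal intron and 65.4% of X promoter summits, and GAGAG at 79.3 and 80.9%. In the same order, CAGGTAG was found at 1 and 1.56%, CA runs at 14.1 and 23.7%, and A runs at 7.1 and 12.1%. These shares are a description with no test.

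The 84 X intron peaks with no GA run of even 6 bp, 25.8% of the set, often held a short word in which a C breaks the alternation. AGCGAG, read on either strand, was present at 46 of these 84 summits, 54.8% (exact 95% interval 43.5 to 65.7%), against 7.74% of their flanks and 7.29% of all X intron tiles. This word was picked as the hexamer with the largest difference between these summits and flanks, after the values had been seen, so its share has no test. It was frequent outside X introns too: among autosomal intron peaks with no run of 6 bp it was present at 44.1% of summits and 10.6% of flanks, and among such X promoter peaks at 51.2 and 6.10%. Over all 325 X intron peaks it was present at 52.3%. AGCGAG can adjoin a GA run and share letters with it. In all, 287 of 325 peaks, 88.3%, had a run of 6 bp or more, or AGCGAG, or both, against 24.8% of flanks, 17.8% of X intron tiles, 79.9% of autosomal intron summits and 84.4% of X promoter summits. Since the word was picked on these summits, their share has no test. The 38 peaks with neither had a median signal of 186, and the strongest of them, at 1902, lay in nocte, a gene needed to entrain the circadian clock to temperature.

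The share of summits with a GA run did not differ past the threshold between X introns and autosomal introns. Such a run was present at 304 of 800 autosomal intron summits, 38.0% (34.6 to 41.5%), against 45.5% on X, an odds ratio of 1.36 (95% interval 1.04 to 1.79, adjusted p = 0.0506 by a two-sided Fisher's exact test). The p lay just above the threshold of 0.05, and the difference passed with 9 of 12 alternative settings. With runs of 6 bp or more the shares were 74.2% on X and 64.0% on autosomes. X promoter peaks, with a summit within 500 bp of a TSS, held a run at 107 of 257 summits, 41.6%. The odds ratio of X intron against X promoter peaks was 1.17 (0.831 to 1.65, adjusted p = 0.400 by a two-sided Fisher's exact test), an interval that leaves room for a difference in either direction.

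GA runs themselves were more frequent in introns of X, which is known for its wealth of simple repeats. Runs of 12 bp or more numbered 44.6 per Mb of X intron and 20.2 per Mb of autosomal intron. Of such runs in X introns, 111 of 426 had an optimal summit within 200 bp, 26.1%, against 175 of 795 in autosomal introns, 22%. The odds ratio was 1.25 (0.939 to 1.66, adjusted p = 0.214 by a two-sided Fisher's exact test) and did not pass. The test counts runs as independent, although 1 summit can mark several neighbouring runs as occupied, which makes its interval too narrow. Most long GA runs in X introns had no optimal peak. The interval of the odds ratio leaves room for a difference in either direction.

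The share of occupied runs was lowest at 8 to 11 bp on both X and the autosomes. From 12 to 29 bp it rose on the autosomes, while on X it changed little against its intervals. The order of X and autosomes was not the same at every length. Of runs of 8 to 11 bp, 16% of 1012 in X introns and 10.6% of 2812 in autosomal introns were occupied. Of runs of 12 to 15 bp, the shares were 24.1% on X (18.3 to 30.7%) and 15.6% on autosomes. At 16 to 19 bp they were 25.5 and 22%, and at 20 to 29 bp 27.1% on X (19 to 36.6%) and 40.8% on autosomes (32.7 to 49.4%). Runs of 30 bp or more were few, with 7 of 14 occupied on X and 6 of 18 on autosomes. Over all runs of 16 bp or more, 27.7% of X runs and 30.3% of autosomal runs were occupied, an odds ratio of 0.880 (adjusted p = 0.579 by a two-sided Fisher's exact test), while over all runs of 8 bp or more the odds ratio was 1.56 (adjusted p = 5.94e-07); over all alternatives tried the adjusted p ranged from 5.94e-07 to 0.579. These tests and intervals, too, count neighbouring runs as independent, which makes the intervals too narrow and the p values too small. Whether the difference between X and autosomes changes with length, and how uniquely reads can be placed in long repeats of each chromosome, was not tested.

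**Figure D2:**
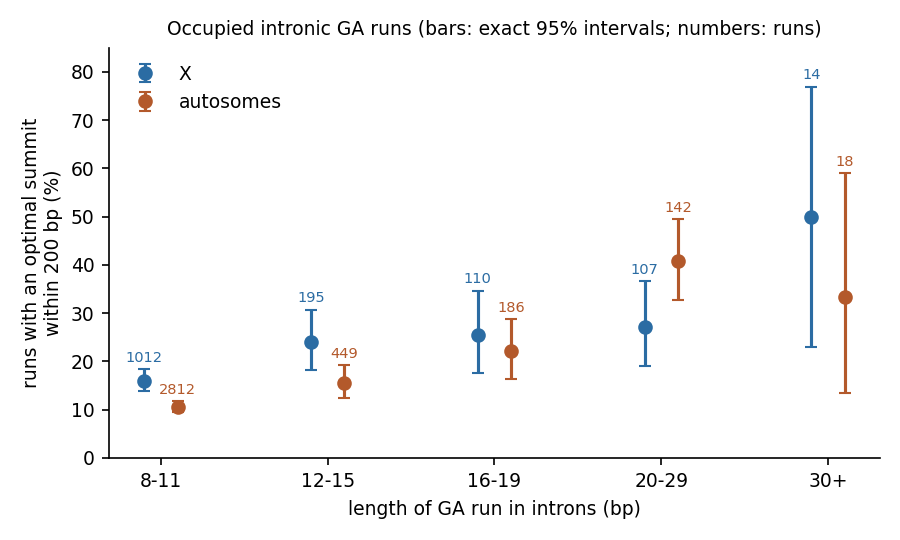
Share of intronic GA runs with an optimal summit within 200 bp, by run length in bp, on X and on the autosomes. Bars are exact 95% intervals and the numbers are runs; on X the share was 16% for runs of 8 to 11 bp and 27.1% for runs of 20 to 29 bp.

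The strand of the run relative to the host gene made no detectable difference to its occupancy. Among X intron runs of 12 bp or more in introns with genes on 1 strand, 43 of 148 with GA on the coding strand were occupied, 29.1%, and 59 of 250 with TC on the coding strand, 23.6%. The odds ratio was 1.32 (0.813 to 2.15, adjusted p = 0.305 by a two-sided Fisher's exact test). Neighbouring runs were again counted as independent. TC on the coding strand was the commoner orientation in the introns to begin with. Of 1338 X intron runs of 8 bp or more with a single orientation, 502 had GA on the coding strand, 37.5%, and of the longest runs at the 139 such X intron peaks 56 did, 40.3%.

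The strongest X intron peaks lay in lncRNA:CR32773, Pp2C1, Smr and acj6. The highest signal, 4303, belonged to a peak at chrX:4411319-4411835, whose summit lay in an intron of lncRNA:CR32773 and 1232 bp from the nearest TSS, that of bi. The gene bi, or optomotor-blind, encodes a T-box transcription factor of wing and optic lobe development, and a second peak in the first intron of bi itself had a signal of 1568. Pp2C1, a protein phosphatase of the 2C family, followed with 3159. Smr, which encodes a corepressor of the SMRT family that acts with nuclear receptors and Notch pathway factors, had 2851, and acj6, a POU-domain factor that sets the identity of olfactory neurons, had 2222. CG32532 had 2122.

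These peaks were high in the lists of both replicates. For the CR32773 peak the signal was 3146 in replicate 4 and 1130 in replicate 2. For Pp2C1 it was 2322 and 820, for Smr 2225 and 608, and for acj6 1703 and 501. Replicate 4 was the higher of the pair at each of these 4 peaks, and the scaling of the signal between lists was not given, so ranks are the fairer measure. These 4 peaks ranked 35th, 74th, 80th and 127th in the list of replicate 4, and 25th, 72nd, 134th and 176th in that of replicate 2.

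Below these, Tlk, a Tousled-like kinase that acts in chromatin assembly, held 3 of the 20 strongest peaks, at 1709, 1544 and 1471. Smr held 2 more, at 1312 and 1118. Nup153, a nucleoporin, had 1517, and ct, the homeobox gene cut of sense organ development, had 1486. Atg5, needed for autophagosome formation, had 1378. Imp, an mRNA-binding protein, had 1174, and Myc, the growth regulator, had 1157. CG32767 had 1130, and mgl, an endocytic receptor of the LDL receptor family, had 1126. The 20 peaks lay in 16 host genes. A first intron of some transcript held 14 of these peaks, and all 20 were found in both replicate lists. Of the 20, 11 had a GA run of 8 bp or more, 18 an imperfect tract and 17 the word AGCGAG. Over all 325 X intron peaks, 56.6% lay in a first intron and 82.8% were found in both lists. A run was held by 45.5% of the 325, an imperfect tract by 76.3% and AGCGAG by 52.3%. These differences were not tested.

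As a set, the X intron peaks were weaker than X promoter peaks and did not differ detectably from autosomal intron peaks. Their signal ran from 124 to 4303 with a median of 261, and the middle of the distribution, between the lower and upper quartiles, spanned 166 to 453. The lowest value belonged to wcy. Autosomal intron peaks had a median of 273 and a highest value of 7591, and X promoter peaks a median of 401 and a highest value of 7546. In the upper 50% of the optimal set by rank stood 157 of 325 X intron peaks, 48.3%, against 166 of 257 X promoter peaks, 64.6%. The odds ratio was 0.513 (0.361 to 0.726, adjusted p = 0.000325 by a two-sided Fisher's exact test). Against autosomal intron peaks, with 399 of 800 in the upper 50%, a share of 49.9%, it was 0.939 (0.719 to 1.23, adjusted p = 0.646 by a two-sided Fisher's exact test).

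Signal did not rise steadily with run length. The 177 peaks without a run of 8 bp had a median signal of 231. The 64 with a longest run of 8 to 11 bp had 283, the 53 with 12 to 19 bp had 320, and the 31 with 20 bp or more had 251. Of the 177 without a run, the 102 with an imperfect tract had a median of 249 and the 75 with neither had 187. In 4 classes of 81 or 82 peaks by falling signal, a run was held by 52.4, 49.4, 44.4 and 35.8% of peaks. The width of the called peak moved with signal too: a width of exactly 410 bp was found in 1 of 82 peaks of the strongest class and 80 of 81 of the weakest, and 196 of the 325 peaks had it.

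**Figure D3:**
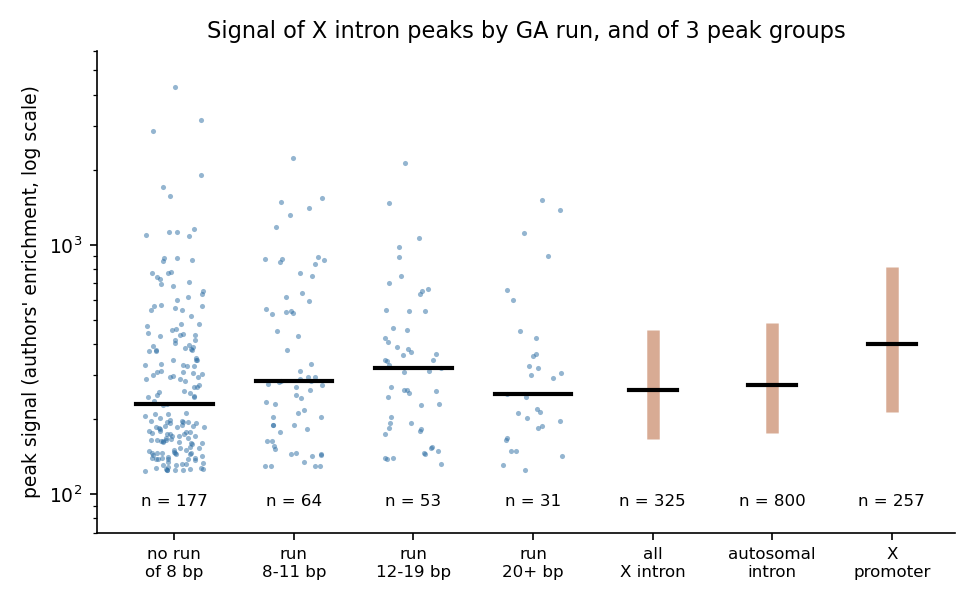
Signal of each X intron peak, on a log scale, by the length of the longest GA run within 100 bp of the summit, with medians as black lines, beside the median and the lower to upper quartile range (thick bars) of all X intron, autosomal intron and X promoter peaks. The medians were 231 with no run, 283 with 8 to 11 bp, 320 with 12 to 19 bp and 251 with 20 bp or more.

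The 2 replicates did not support every peak alike. A peak was counted as found in a replicate when any region of that replicate's list, background regions included, had its summit within 200 bp. By this measure 269 of 325 X intron peaks, 82.8%, were found in both lists, against 80.0% of all 3071 optimal peaks. Each list held 30000 regions. With only as many of the strongest regions of each list as the optimal set has peaks, the share found in both was 63.4% of X intron peaks and 61.5% of autosomal intron peaks. The optimal set was itself made from these lists, so some overlap was built in. Replicate 2 lacked 4 of the peaks and replicate 4 lacked 52, and none was missing from both. The 52 peaks found in replicate 2 alone had a median signal of 195 and a GC content of 48.8%, against 288 and 51.2% for the 269 found in both, and the part of signal or base composition in this was not tested. The strongest of the 52, in CHES-1-like, had a signal of 1068. Autosomal intron peaks were found in both lists in 634 of 800 cases, 79.3%, and the odds ratio of 1.26 (0.891 to 1.79, adjusted p = 0.280 by a two-sided Fisher's exact test) did not pass. Over the 269 peaks in both lists the 2 signals were related with a Spearman correlation of 0.777, a description over peaks that share both libraries and their control.

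**Figure D4:**
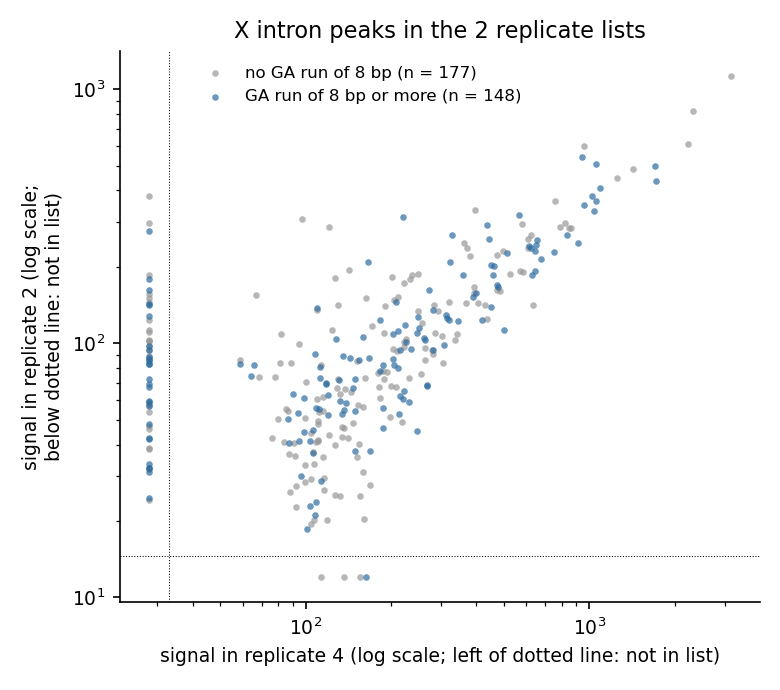
Signal of each of the 325 X intron peaks in the list of replicate 4 and of replicate 2, both on log scales; points beyond a dotted line were not found in that list, and blue points have a GA run of 8 bp or more. The column at the left holds the 52 peaks not found in replicate 4, and the row at the bottom the 4 not found in replicate 2.

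Optimal peaks were more densely placed in X introns than in autosomal introns. There were 325 peaks in 9.56 Mb of X intron, 34.0 per Mb, and 800 in 39.3 Mb of autosomal intron, 20.4 per Mb. The ratio was 1.67 (1.46 to 1.90; exact conditional binomial test of rates, two-sided, adjusted p = 3.20e-13). This test counts neighbouring peaks as independent, which makes its interval too narrow: 133 of the 325 peaks lay within 5 kb of another and 89 within 2000 bp. The density of GA runs of 12 bp or more was also higher on X, at 44.6 and 20.2 per Mb, and its part in the density of peaks was not tested.

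Along the X chromosome the peaks were unevenly spread. The Mb from 3 to 4 held 32 peaks, that from 7 to 8 held 28 and that from 12 to 13 held 26, while the Mb from 14 to 15 held 2. Per Mb of intron these were 50.5, 66.7, 47.6 and 5.24 peaks. No peak lay beyond 23 Mb, where 0.0303 Mb of intron remained. The median distance from an X intron peak to the nearest other one was 7177 bp. As many as 16 peaks were within 300 bp of another, a distance shorter than the longest chromatin fragments, and 4 peaks shared a region of the replicate 2 list with another.

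Within genes the peaks lay nearer to promoters than intron sequence at large. The comparison with tiles has no test. The median distance of the peaks to the nearest TSS was 3158 bp, and that of X intron tiles 5330 bp. Within 1000 bp of a TSS lay 56 peaks, 17.2%, against 8.42% of tiles, and over 5000 bp from any TSS lay 124 peaks, 38.2%, against 52.1% of tiles. A first intron of some transcript held 184 peaks, 56.6%, against 47.8% of tiles. The introns that held peaks had a median length of 10192 bp, and the introns of tiles 14045 bp. Near splice sites the peaks were not in excess, with 9.85% within 200 bp of an intron edge against 11.6% of tiles. For 91 of the 325 peaks the nearest TSS was not that of a host gene, a count for which no share of tiles was taken. The farthest peak from any TSS, at 59633 bp, lay in CG43759 with a signal of 146.

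The 325 peaks lay in 170 host genes, counting 1 host for each peak. A protein-coding gene was host to 317, and 8 lay in noncoding RNA genes alone. Of the hosts, 95 held a single peak, and the other 75 held 230 peaks together. With every overlapping gene counted, 169 of 1505 X-linked protein-coding genes with intron under the rule had at least 1 peak, 11.2%.

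Several hosts held clusters. The noncoding genes lncRNA:CR44357 and lncRNA:CR32773, which run over many other genes, held 17 and 11 peaks, and the protein-coding CG1677 held 11, shared in part with Atg5 and Dok nested in its span. All 11 peaks of CG1677 were among the 17 of CR44357, which also included peaks of Cph. Of those in CG1677, 6 had brk, a repressor of Dpp target genes, as the gene with the nearest TSS, at distances from 1064 to 7823 bp and with signals from 144 to 615. Tlk held 9 peaks in 42.5 kb of intron, 21.2 per 100 kb, with signals from 132 to 1709 and a GA run of 8 bp at 5 of them. The gene bi held 8, all among the 11 of CR32773, with signals from 125 to 1568 and a run at 3. Smr held 6 from 145 to 2851, and Hr4, an orphan nuclear receptor of the ecdysone response, held 6 from 132 to 380.

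Some genes held 5 peaks each with quite different profiles. N, the Notch receptor, had peaks with signals of 982, 769, 654, 531 and 350, and a run at 3 of them. Raf, a kinase of the MAP kinase pathway, had 896, 887, 386, 345 and 162. In Pits, named for its protein's interaction with Ttk69 and Sin3A, the 5 peaks lay in 8.17 kb of intron, 61.2 per 100 kb, with signals of 874, 742, 520, 453 and 297. In these 3 genes the weakest of the 5 peaks was at or above 162, and in N and Pits at or above 297. Lim1, a LIM-homeobox gene of antenna and leg development, had 274, 249, 195, 173 and 149, none with a GA run of 8 bp. In ct a single peak of 1486 stood above 4 others between 138 and 198. Cph had 1087, 246, 177, 167 and 164, and Ten-a had 658, 359, 345, 146 and 126. The 2 Cph peaks of 1087 and 177 shared a region of the replicate 2 list.

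Peaks per length of intron differed widely between genes. The gene kirre, an immunoglobulin-family adhesion gene of myoblast fusion, had 309 kb of intron under the rule and 7 peaks, 2.27 per 100 kb, with none above 366. Over all protein-coding genes with up to 1000 bp of intron, 7 of 867 held a peak. Of those with up to 10000 bp, 68 of 423 did, of those with up to 50000 bp 63 of 170, and of the longest 31 of 45. Per 100 kb of intron the peaks numbered 2.80, 5.83, 3.77 and 2.31 in this order, so the genes of 1 to 10 kb had the highest density and the longest genes the lowest.

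**Figure D5:**
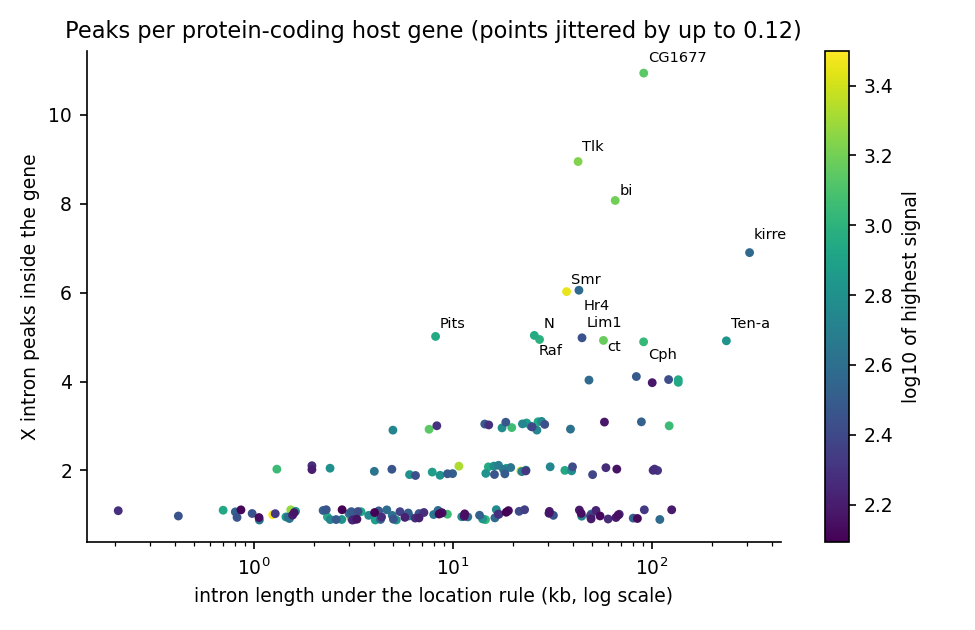
Number of X intron peaks inside each protein-coding gene with at least 1, against the length of its intron under the location rule (kb, log scale), with the log10 of its highest signal as colour; points are shifted slightly up or down so that they can be told apart. Tlk held 9 peaks in 42.5 kb and Pits 5 in 8.17 kb, while kirre held 7 in 309 kb.

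The gene lists are described by their counts, with no test of a difference between them. Over all X-linked protein-coding genes, 11.2% held a peak, with 3.46 peaks per 100 kb of intron and a median intron length of 0.631 kb. Of 33 genes on the transcription factor list used, which includes the corepressor Smr, 17 had one, with 8.55 peaks per 100 kb. Smr, acj6 and CG32532 had the highest signals among them, and sd, lz and disco were among the 16 with no peak. Of 26 signalling genes, 11 had one, with 9.17 per 100 kb, led by Pp2C1, N and Raf. The transcription factor and signalling lists had median intron lengths of 8.775 and 5.015 kb. All X-linked protein-coding genes with 1 to 10 kb of intron had 5.83 peaks per 100 kb. Of 8 genes of RNA-binding proteins, 3 had one, namely Imp with 1174, fne with 900 and elav with 326. The last 2 encode neuronal proteins of the ELAV family.

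The genes of adhesion and of synaptic function on the lists had median intron lengths of 23.8 and 13.8 kb. Of 25 adhesion, polarity and axon guidance genes, 12 held a peak, with 2.46 per 100 kb, beside 2.31 per 100 kb for all X-linked genes with over 50 kb of intron. The highest signals were 877 in rg, an anchor protein for protein kinase A, 852 in mew and 702 in if, which both encode integrin alpha subunits. Of 40 genes of ion channels, receptors and synaptic proteins, 9 held a peak, with 1.18 per 100 kb. Among these SK, a potassium channel gated by calcium, had 360, dnc, a cAMP phosphodiesterase, had 268, and rut, an adenylyl cyclase, had 227. Both the share of genes with a peak and the density moved with intron length over all genes, as given above, and the part of length in the counts of the lists was not tested.

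Of the dosage compensation and sex determination list, 4 genes were on X with intron under the rule, and none of them held an X intron peak. Over all X-linked protein-coding genes with intron under the rule 11.2% held one, so none in 4 tells little. The 4 were Sxl, the master switch of sex determination, snf, which acts in its splicing, and run and upd1, which act in counting X chromosomes. Together they had 0.0152 Mb of intron, against 9.56 Mb for all X introns, so their introns were a small part of the sequence searched.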

How the data were processed

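The data were CLAMP ChIP-seq peaks of 2 biological replicates in 1 group, and replicate 2 has 1 more protocol document in its labels than replicate 4. The authors made each list of a replicate from its alignment and a control, per the deposited text files, and the optimal set by an irreproducible discovery rate step on the replicate and pooled lists. The signal column is the authors' own enrichment value, as deposited. Aligner, peak caller, threshold and the scaling of signal to depth were not given in the sources used here. Lists in dm6 were used, and those in dm3 were not.

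Summits were placed on the Release 6 sequence, counting from 1, with genes from BDGP 6.54 (Ensembl 115). Introns under the location rule were positions inside a gene, in no exon and over 500 bp from any TSS. The same rule gave the autosomal intron peaks, from the 4 autosomal arms. GA runs were sought within 100 bp of a summit, on both strands, and overlap with an imperfect tract or GAGAG was allowed. A replicate region matched when its summit was within 200 bp. Shares were compared by two-sided Fisher's exact tests, with exact 95% intervals (Clopper-Pearson) for shares, and the 9 comparisons were adjusted by Benjamini-Hochberg at 0.05. The peak lists give no depth, and the number of sites limits the precision.

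The members, gene lists and tests were chosen with earlier results of these data known, and gene lists were trimmed to genes on X with intron under the rule. Genes were named when they were hosts of the 20 strongest peaks, held 5 or more peaks, led a gene list (up to 3 each) or held 1 of the 5 longest runs. AGCGAG, pigs, wcy, CHES-1-like, CG43759, brk, Dok and the listed genes without a peak were chosen for naming with their values in view. Results for 2 genes are not reported here. Alternatives were other run lengths, windows, promoter distances and matching distances, the upper 50% of peaks by signal, introns of protein-coding genes, and each replicate left out. Leaving out a replicate replaced the optimal set by the strongest regions of the other replicate's own list, as many as that set has peaks. A further alternative, chosen after seeing the data, kept only peaks found in both replicate lists. The scripts were tested on simulated data. Python 3.11.15, numpy 2.4.6, scipy 1.17.1, pandas 2.3.3 and matplotlib 3.10.9 were used.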

Additional observations from a re-analysis of the deposited data

How the results depend on the processing

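Of 67 alternatives over the 9 tested results, 55 kept the direction and the side of the threshold, 11 passed where the main setting did not, and 1 turned the direction. The odds ratio for a GA run at X intron against autosomal intron summits, 1.36 in the main setting, passed at 1.61 with runs of 6 bp, 1.56 with runs of 12 bp, 1.43 in windows of 50 bp, 1.46 in windows of 200 bp, 1.48 for imperfect tracts, 1.34 with a promoter distance of 200 bp and 1.38 in introns of protein-coding genes. With a replicate left out, which used the other replicate's own list, it was 1.59 to 1.62. It did not pass in the upper 50% of peaks, at 1.44, or with a promoter distance of 1000 bp, at 1.37. Nor did it for peaks found in both lists, at 1.36. Its adjusted p over all alternatives ranged from 0.000578 to 0.131. Against X promoter peaks only imperfect tracts passed, at 1.70. For occupied runs, X against autosomes, the test counts neighbouring runs as independent. Its odds ratio was 1.56 with runs of 8 bp or more, which passed, and 0.880 with runs of 16 bp or more, which turned the direction without passing. The causes were not tested. The ratio of density ranged from 1.60 to 1.74 and passed in all 7 alternatives. The number of X intron peaks ranged from 263 to 375 over 5 alternatives. No paired analysis was possible because there was only 1 group. Unknown depth limits what a peak missing from a replicate list means.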
